A study of Mus musculus with 3 samples.

Results

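The mRNAs of 5 mouse Ly6 genes, Ly6a, Ly6c1, Ly6c2, Ly6e and Ly6i, were followed across the cell clusters of brains with and without breast cancer metastases. They were 5 of the 31053 genes in the deposited count table. The 5 genes were chosen by their measured values, namely their levels over the deposited clusters and their difference between brains with metastases and naive brains in these same cells, so both are given as descriptions and no test of a member is made. In the study, cells of mouse brains were stained with 6 surface antibodies (against the T cell antigens CD3, CD4 and CD25, the leukocyte antigen CD45, and CD11b and CD86 of myeloid cells) and, brain by brain, with a hashing antibody, then pooled and sequenced as 1 library on the 10x droplet platform, which counts the 3′ ends of mRNA molecules (unique molecular identifiers, UMIs). The brains with metastases came from female C57Bl/6 mice aged 2 to 3 months that had received E0771 cells, a mouse mammary carcinoma line, through the carotid artery about 2 weeks earlier. The naive brains came from female C57Bl/6 mice of the same age without brain metastases. All mice were perfused with PBS, and the tissue was dissociated with papain and enriched for mononuclear cells on a Percoll gradient, so the shares of cell types are those of the enriched suspension. The labels describe each sample as 1 brain hemisphere, and the series' design text speaks of 6 pooled samples, whereas 4 hashing antibodies were analysed here.

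Each of the 4 hashed suspensions was taken as 1 replicate, 2 with metastases and 2 naive, and the labels do not say whether the suspensions of a condition came from separate mice or are hemispheres of the same one. Values called n = 2, and brains, refer to these suspensions. Metastasis 1 and metastasis 2 gave 5360 and 6174 cells, against 572 and 315 cells for naive 1 and naive 2. The median number of UMIs per cell was 7294 and 7708 in the brains with metastases, against 1394 and 1230 in the naive brains. All 12421 cells had been called as carrying 1 hashing antibody, and no further doublet caller was run. Clusters 0, 1, 3, 4 and 5 held 73.6% and 70.6% of the cells of the brains with metastases, against 13.8% and 7.30% of naive cells (79 and 23 cells), although the naive mice received no tumour cells. These large clusters are referred to by number. All brains shared 1 library, so any RNA outside cells was mixed over all of them after pooling.

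Ly6 proteins are small surface proteins that carry a 3-finger fold and are held in the membrane by a lipid (GPI) anchor. Ly6a, also called Sca-1, marks blood stem cells and many endothelial cells and is induced by interferons. Ly6c1 and Ly6c2 encode the near-identical forms of the Ly6C antigen, which is used to sort inflammatory monocytes and is also carried by endothelial cells of the mouse brain. Ly6e is a broadly expressed, interferon-induced member known for its effect on virus entry, and Ly6i is a less studied relative of Ly6c.

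The 5 genes lie together on chromosome 15. In the RefSeq annotation of the mm10 assembly (GRCm38.p6) they are Ly6e at chr15:74955025-74959904, Ly6i at chr15:74979534-74983434, Ly6a at chr15:74994877-74998031, Ly6c1 at chr15:75044018-75048920 and Ly6c2 at chr15:75108161-75112066. The interval spans 157.0 kb and contains 10 annotated genes, of which 5 are protein-coding, namely the members themselves. The start regions of Ly6c1 and Ly6c2 are shown because these neighbours resemble each other in sequence and were found in different cell clusters. Each stretch runs from 250 bases before to 50 bases after an annotated start, on the minus strand of GRCm38.p6, from RefSeq (Ly6c1 at chr15:75048788-75049087 and Ly6c2 at chr15:75111922-75112221). Capitals mark TATAAA, the letters of a TATA box, in Ly6c1 and GAGGAAGT, letters like those bound by the myeloid factor PU.1 (gene Spi1), in Ly6c2.
Ly6c1: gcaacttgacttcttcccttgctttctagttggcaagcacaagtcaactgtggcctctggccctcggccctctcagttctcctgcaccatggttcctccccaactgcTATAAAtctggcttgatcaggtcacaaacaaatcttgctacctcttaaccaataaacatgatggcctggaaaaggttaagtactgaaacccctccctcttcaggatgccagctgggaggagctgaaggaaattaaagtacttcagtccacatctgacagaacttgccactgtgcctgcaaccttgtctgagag
Ly6c2: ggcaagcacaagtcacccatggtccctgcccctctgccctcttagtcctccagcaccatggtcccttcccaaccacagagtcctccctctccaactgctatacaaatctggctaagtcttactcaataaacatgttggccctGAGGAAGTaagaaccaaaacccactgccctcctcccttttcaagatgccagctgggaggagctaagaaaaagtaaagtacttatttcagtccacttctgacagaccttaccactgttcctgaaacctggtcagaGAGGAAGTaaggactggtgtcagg
A global alignment paired 260 bases of these windows, of which 214 were identical (82.3%), with 80 gap positions and a longest identical run of 20 bases. TATAAA was searched on both strands (TTTATA on the other) and was found in 13.6% of 32851 annotated start windows of this length. The Ly6c1 window shown holds it once, from base 108, well before the annotated start that follows base 250. A second annotated start window of Ly6c1, and the Ly6c2 window shown, lack these letters. No TATA box is read from them. GAGGAAGT (ACTTCCTC on the other strand) was found in 3.2% of all windows, and the Ly6c2 window shown holds 2 matches. The second start window of Ly6c1, which overlaps the first, holds 1 match of GAGGAAGT, so this motif does not separate the genes. A pattern of the interferon-stimulated response element, found in 3.44% of windows, and TTCNNNGAA, which reads the same on both strands, resembles the site of STAT factors and was found in 8.3% of windows, had no match in the annotated start windows of either gene. The letters describe these windows only, and no start window of Ly6a, Ly6e or Ly6i was used here.

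Ly6a and Ly6c1 were highest in cluster 6, whose leading genes included Cldn5, a tight junction protein of the blood-brain barrier, together with Itm2a and Flt1. It is called endothelial-like here. All 13 endothelial markers were detected in it, but also in clusters 1, 3, 7 and 10. With metastases they summed to 4398 and 4665 CPM in cluster 6, against 379 and 384 CPM in cluster 5, the next highest. Ly6a had 1127 and 1013 UMIs per 1000000 UMIs of the same cluster and brain (CPM) in cluster 6 of the brains with metastases, against 2080 and 1700 CPM in the naive brains. Ly6c1 had 1288 and 815 CPM there with metastases, against 2955 and 2054 CPM in the naive brains. Both genes were lower in both brains with metastases than in either naive brain. With metastases, Ly6a averaged 1070 ± 80.7 CPM and Ly6c1 1052 ± 334 CPM (SD, n = 2), and each was above the next cluster in both brains. For Ly6c1 the next cluster, the unnamed cluster 10, averaged 29.8 CPM. Ly6c1 was thus far higher per UMI in the endothelial-like cells than in any other cluster, although low levels were found in most of the others. For Ly6a the next was cluster 2, at 348 and 728 CPM with metastases, followed by cluster 8 at 406 and 453 CPM. The ranges of clusters 2 and 8 overlapped, so their order is not resolved. The clusters were drawn from the RNA of these same cells, the Ly6 genes included, so a member's place in a cluster is a description and not an independent finding.

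Ly6c2 and Ly6i were highest in cluster 2, led by Ms4a7 and the monocyte genes Lyz2 and Ms4a4c, and called monocyte/macrophage-like here. All 13 monocyte markers were detected in it, as in most clusters, and all 14 macrophage markers in it alone. Monocyte markers summed there to 25395 and 15878 CPM with metastases, against 11512 and 2140 CPM in cluster 12. Macrophage markers had 9153 and 16951 CPM, against 14510 and 8926 CPM in cluster 12, so they do not set cluster 2 apart from it. Ly6c2 had 688 and 565 CPM in cluster 2 with metastases and averaged 626 ± 86.6 CPM (SD, n = 2). Ly6i had 231 and 243 CPM there and averaged 237 ± 9.02 CPM (SD, n = 2). Neither can be compared with naive brains in this cluster, since naive brains held 10 and 5 of its cells. In those cells Ly6c2 had 1 and 7 UMIs. Ly6i had none, and a floor of 3 UMIs corresponds there to 242 and 639 CPM, as high as the level with metastases. Ly6c2 was followed in order by cluster 8 (241 and 169 CPM with metastases), cluster 12 (159 and 153 CPM) and cluster 10 (98.8 and 61.3 CPM), each above the next in both brains. In endothelial-like cells Ly6c2 had 9.07 and 11.8 CPM with metastases. The 2 near-identical Ly6C genes were thus counted in different clusters, Ly6c1 in endothelial-like and Ly6c2 in monocyte/macrophage-like cells. Reads that the counting could not tell apart between them may have been split or dropped, so their absolute levels are uncertain. Ly6i reached 26.5 and 122 CPM in cluster 12 and 36.7 and 36.3 CPM in cluster 8 with metastases, ranges that overlapped.

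Ly6e was found in every cluster. It had 1466 and 1566 CPM in cluster 2 with metastases, 1167 and 1223 CPM in cluster 12, and 796 and 1025 CPM in endothelial-like cluster 6. Cluster 2 was above cluster 12, and cluster 12 above cluster 6, in both brains. Clusters 6, 8 and 3, at means of 911, 860 and 825 CPM, overlapped and are not ordered. The lowest level was in cluster 9, led by genes of choroid plexus epithelium such as Ttr (transthyretin), with 178 and 269 CPM with metastases. A specificity index, which is 0 for a gene at the same log2(CPM + 1) in all 13 clusters and 1 for a gene of a single cluster, was 0.702 for Ly6i, 0.675 for Ly6c1, 0.646 for Ly6c2, 0.347 for Ly6a and 0.138 for Ly6e. By this index Ly6e was the most evenly spread member. The values of Ly6i, Ly6c1 and Ly6c2 were close, and an index on log2(CPM + 1) depends on the level of a gene. From the highest to the next cluster, mean Ly6c1 fell from 1052 to 29.8 CPM with metastases, and Ly6i from 237 to 74.4 CPM. No order of restriction is therefore read among these 3 genes.

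**Figure D1:**
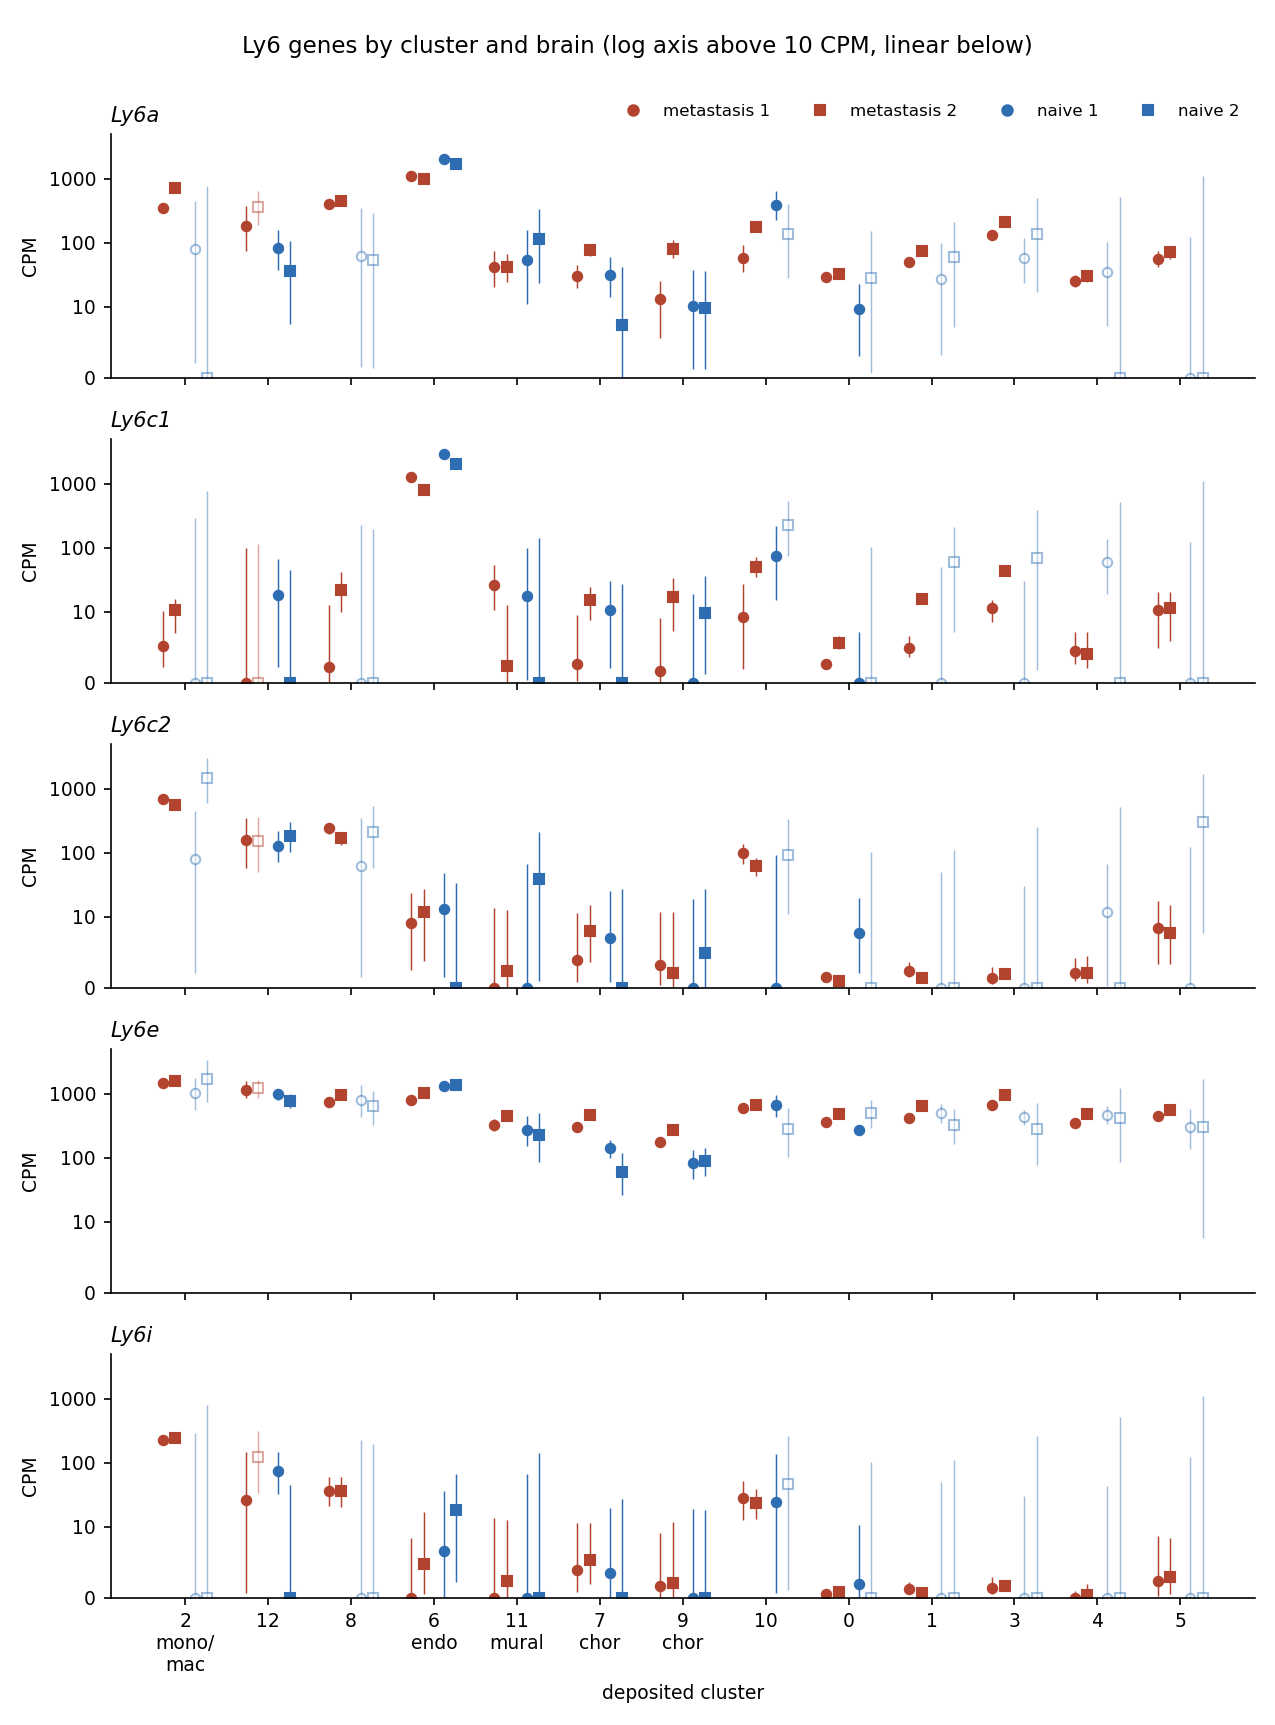
Level of each Ly6 gene (CPM, log axis above 10) in each deposited cluster, with each brain as a point (red for metastases, blue for naive) and the exact 95% Poisson interval of its count as the bar; open symbols rest on fewer than 20 cells, and mono/mac, endo and chor stand for the monocyte/macrophage-, endothelial- and choroid plexus-like clusters. Ly6c1 stands out in cluster 6 (1288 and 815 CPM with metastases, 2955 and 2054 CPM naive), Ly6c2 and Ly6i in cluster 2, and Ly6e is present throughout.

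The share of cells with a UMI depends on depth, so each cell was thinned to 1000 UMIs and shallower cells were left out (518 of the cells of cluster 2, 207 of cluster 8 and 121 of cluster 6 in the brains with metastases, and 171 naive cells of cluster 6). In the brains with metastases, Ly6a was then seen in 54.1% of endothelial-like cells (86 of 159), 32.8% of monocyte/macrophage-like cells and 30.6% of cluster 8. Ly6c1 was seen in 45.9% of endothelial-like cells and in 0.633% of monocyte/macrophage-like cells (8 of 1263). Ly6c2 showed the mirror image, with 37.5% of monocyte/macrophage-like cells (473 of 1263) and 0.629% of endothelial-like cells (1 of 159). In cluster 0, one of the large clusters, Ly6c2 was seen in 0.0635% of cells (2 of 3151), which is set beside it as the share in a cluster with almost no Ly6c2. Unthinned, the shares were 47.8% in cluster 2 and 1.78% in cluster 0, at median depths of 1485 and 13989 UMIs per cell. Ly6i was seen in 17.3% of monocyte/macrophage-like cells and 5.94% of cluster 8. Ly6e was seen in 75.1% of monocyte/macrophage-like cells, 53.5% of endothelial-like cells and 17.8% of cluster 9 (30 of 169 cells). In naive endothelial-like cells thinned the same way, Ly6a was seen in 61.0%, Ly6c1 in 64.6% and Ly6e in 74.4% of 82 cells. Unthinned, endothelial-like cells with a UMI made up 70.4% with metastases and 66.4% in naive brains for Ly6a, and 65.7% with metastases and 71.1% in naive brains for Ly6c1. The intervals cover counting error only.

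**Figure D2:**
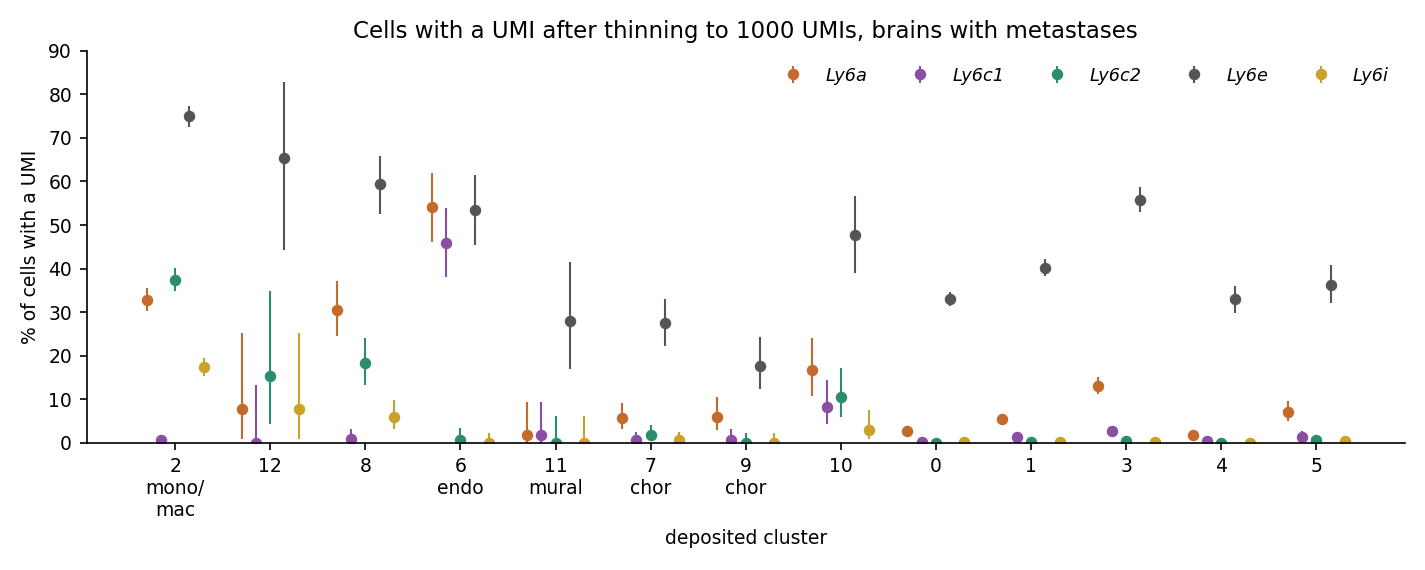
Share of cells with at least 1 UMI of each Ly6 gene (%, with the exact 95% binomial interval) in each deposited cluster of the brains with metastases, after thinning each cell to 1000 UMIs. Ly6c1 peaks in cluster 6 (45.9%) and Ly6c2 in cluster 2 (37.5%), and each is below 1% where the other peaks.

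Because clusters differ in size, the cluster with the highest level did not always hold most of the transcripts. With metastases, 84.4% of Ly6c2 UMIs came from cluster 2. For Ly6c1, 43.4% came from cluster 6 with metastases, against 96.6% in naive brains, and 29.5% came from cluster 3 with metastases, where it was seen in 28.1% of the deep, unthinned cells (332 of 1180) and in 2.80% of cells thinned to 1000 UMIs. For Ly6a, 9.09% came from cluster 6 with metastases, against 86.9% in naive brains. In the brains with metastases 33.0% of Ly6a UMIs came from cluster 3 and 21.6% from cluster 2. The 5 large clusters together held 84.3% of Ly6e, 62.4% of Ly6a, 51.2% of Ly6c1, 7.76% of Ly6i and 5.46% of Ly6c2 UMIs with metastases. Cluster 3, led among others by the interferon-induced genes Usp18 and Bst2, was the highest of the large clusters for Ly6a (133 and 213 CPM) and Ly6e (678 and 972 CPM) in those brains. The others had between 25.4 and 75.1 CPM of Ly6a. A list of 53 interferon-induced genes in the table summed to 9554 and 9650 CPM in cluster 3, against 4094 to 6265 CPM in the other large clusters, in the brains with metastases.

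Within monocyte/macrophage-like cluster 2, members overlapped in the cells in which they were seen. In thinned cells of metastasis 1 and metastasis 2, Ly6c2 was seen in 52.2% and 43.2% of cells with Ly6a, against 40.0% and 27.4% of cells without it. Ly6i was seen in 18.9% and 25.9% of cells with Ly6c2, against 15.7% and 13.2% of cells without it. A UMI of one member was thus more frequent in cells with the other in both brains. The 13 monocyte markers together had a mean of 29.8 and 19.7 UMIs in cells with Ly6c2, against 24.3 and 16.5 in cells without it. The 14 macrophage markers went the other way, with 8.01 and 15.5 UMIs in cells with Ly6c2, against 9.84 and 19.1 in cells without it. By single gene, 7 of 13 monocyte markers were higher in cells with Ly6c2 in both brains and 6 were mixed. Of 14 macrophage markers, 6 were lower in both brains, C1qa, C1qb and C1qc among them, 2 were higher (Cd68 and Fcgr1) and 6 were mixed. Plac8, a gene of inflammatory monocytes, averaged 3.02 and 1.98 UMIs in cells with Ly6c2, against 2.05 and 1.41 without it. C1qa, a complement subunit made by macrophages, averaged 0.604 and 1.15 UMIs in cells with Ly6c2, against 1.05 and 1.71 without it. Cells of 1 brain are not replicates, so these are descriptions with no test.

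Ly6i was like Ly6c2 in these lists, with 29.4 and 20.2 monocyte-marker UMIs in cells with Ly6i, against 26.1 and 17.0 without it, and 7.10 and 13.9 macrophage-marker UMIs, against 9.47 and 18.7. Ly6a was the opposite. Monocyte markers had 24.2 and 15.3 UMIs in cells with Ly6a, against 27.3 and 19.1 without it, and macrophage markers had 10.4 and 19.6 UMIs, against 8.68 and 16.6. The 3 MHC class II genes of the dendritic list, whose products present antigen to CD4 T cells, had 9.62 and 10.2 UMIs in cells with Ly6a, against 6.31 and 8.32 without it. For Ly6c2 these genes had 6.10 and 7.61 UMIs in cells with it, against 7.71 and 9.83 without it. In cells with Ly6i they had 8.06 and 9.21 UMIs, against 6.81 and 9.05 without it, the direction seen for Ly6a. Thus Ly6c2 and Ly6i were seen with monocyte RNA, and Ly6a with macrophage and MHC class II RNA, in both brains. The interferon-induced genes were higher with either, at 25.3 and 27.1 UMIs in cells with Ly6c2, against 21.3 and 21.2 without it, and at 26.9 and 26.4 UMIs in cells with Ly6a, against 22.0 and 21.0 without it. Surface CD45 tags had medians of 216 and 202 in cells with Ly6a, against 164 and 152 without it. Hashing tags were also higher there, at 755 and 998 against 535 and 759, and the part of total tag capture in the CD45 difference was not tested.

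Cluster 8 was led by genes of NK cells (Klrd1, Gzma) and antigen-presenting cells (H2-Aa, Ccr7) and stays unnamed as a whole. It was split in the brains with metastases into cells with 2 or more UMIs of T cell receptor and CD3 genes (40 and 64 cells), cells with none of these and 2 or more of NK markers (22 and 33), and cells with neither and 5 or more of MHC class II genes (48 and 76). Ly6a had 298 and 401 CPM in the T cell set, 704 and 300 CPM in the NK set and 270 and 545 CPM in the MHC class II set. The remaining cells (74 and 69) had 505 and 445 CPM of Ly6a, above the T cell set in both brains. No other order of Ly6a among the 4 sets held in both brains. Ly6c2 had 67.4 and 76.7 CPM in the MHC class II set, below the 337 and 105 CPM in the T cell set and the 221 and 360 CPM in the NK set. In cells of cluster 8 with Ly6a, the interferon-induced genes had a mean of 23.2 and 22.6 UMIs, against 13.8 and 13.5 without it.

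Cluster 12 was led by neutrophil genes (S100a9, Camp, S100a8) as well as microglia genes (Tmem119, Cx3cr1) and is not named. Neutrophil markers summed to 53.1 and 91.7 CPM there with metastases, against 621 and 33523 CPM in naive brains. In its cells with at most 1 neutrophil-marker UMI, Ly6c2 had 159 and 158 CPM with metastases, against 61.9 and 39.9 CPM in naive brains. In the naive cells with 2 or more such UMIs, Ly6c2 had 726 CPM (8 UMIs in 5 cells) and 403 CPM (13 UMIs in 9 cells). In the cells with at most 1 neutrophil-marker UMI, Ly6e had 1167 and 1170 CPM with metastases, against 1022 and 998 CPM in naive brains, and Ly6a had 186 and 380 CPM, against 92.9 and 39.9 CPM. These levels rest on few UMIs, 7 and 12 against 9 and 2 for Ly6a, and 6 and 5 against 6 and 2 for Ly6c2. The 12 microglia markers summed over the cluster to 8011 and 4738 CPM with metastases, against 15849 and 14369 CPM in naive brains, and their part in these levels was not tested. Metastasis 2 held 15 cells of this cluster, fewer than the 20 cells set as the minimum for a comparison.

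Change with metastases was described in the 4 clusters with at least 20 cells in every brain, namely endothelial-like cluster 6, choroid plexus-like clusters 7 and 9 and mural-like cluster 11, led by the contractile genes Tagln, Myl9 and Acta2. In endothelial-like cells, Ly6a, Ly6c1 and Ly6e were each lower in both brains with metastases. Ly6e had 796 and 1025 CPM with metastases, against 1336 and 1354 CPM in naive brains. As log2 of the ratio of mean levels, with 5 CPM added to each, metastases over naive was -0.82 for Ly6a, -1.25 for Ly6c1 and -0.56 for Ly6e. By comparison, 23.6% of all genes with at least 10 UMIs in this cluster were lower in both brains with metastases than in either naive brain. The values that chose the members include this contrast. In clusters 6, 7, 9 and 11, Ly6c2 and Ly6i had at most 12 UMIs each over the brains with metastases and at most 3 over the naive brains, and are not compared.

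The endothelial markers moved with these genes. Summed over 13 markers they had 4398 and 4665 CPM in cluster 6 with metastases, against 10392 and 8198 CPM in naive brains. Cldn5 alone had 1511 and 1654 CPM with metastases, against 3212 and 2590 CPM in naive brains. Per UMI of these markers, Ly6a had 0.256 and 0.217 UMIs with metastases, against 0.200 and 0.207 in naive brains. Ly6c1 had 0.293 and 0.175 per marker UMI, against 0.284 and 0.251, and Ly6e had 0.181 and 0.220, against 0.129 and 0.165. Against the endothelial markers, Ly6a and Ly6e thus lay above both naive brains over all cells and Ly6c1 overlapped. The nearest brains were close, at 0.217 against 0.207 for Ly6a and 0.181 against 0.165 for Ly6e. Counting error and the share of all genes that lie so are not given, so a rise is not read from these ratios.

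The lower levels lay largely in the deepest cells of the cluster, though for Ly6c1 not only there. Its cells were split in each brain into 4 equal bins by UMIs. In the bin with the most UMIs, median depth was 8470 and 7877 UMIs with metastases, against 1511 and 1616 in naive brains. These cells held 76.9% and 71.4% of the cluster's UMIs with metastases, against 45.6% and 50.9% in naive brains. Ly6a had 563 and 617 CPM in them, against 1777 and 1482 CPM in naive brains, and endothelial markers had 1957 and 3671 CPM, against 9984 and 6676 CPM. In the next bin Ly6a had 3095 and 1900 CPM with metastases, against 2176 and 2000 CPM in naive brains. Ly6e overlapped in that bin, at 1429 and 1168 CPM, against 1478 and 1174 CPM. Ly6c1 had 3690 and 1433 CPM there, against 2817 and 2608 CPM, so in metastasis 2 it was lower in that bin as well. The 50 genes that lead the 5 large clusters had a median of 24780 and 17289 CPM per cell in the deepest bin with metastases, against 6334 and 5280 CPM in naive brains. RNA of the large clusters was thus high in the same cells in which Ly6a was low.

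**Figure D3:**
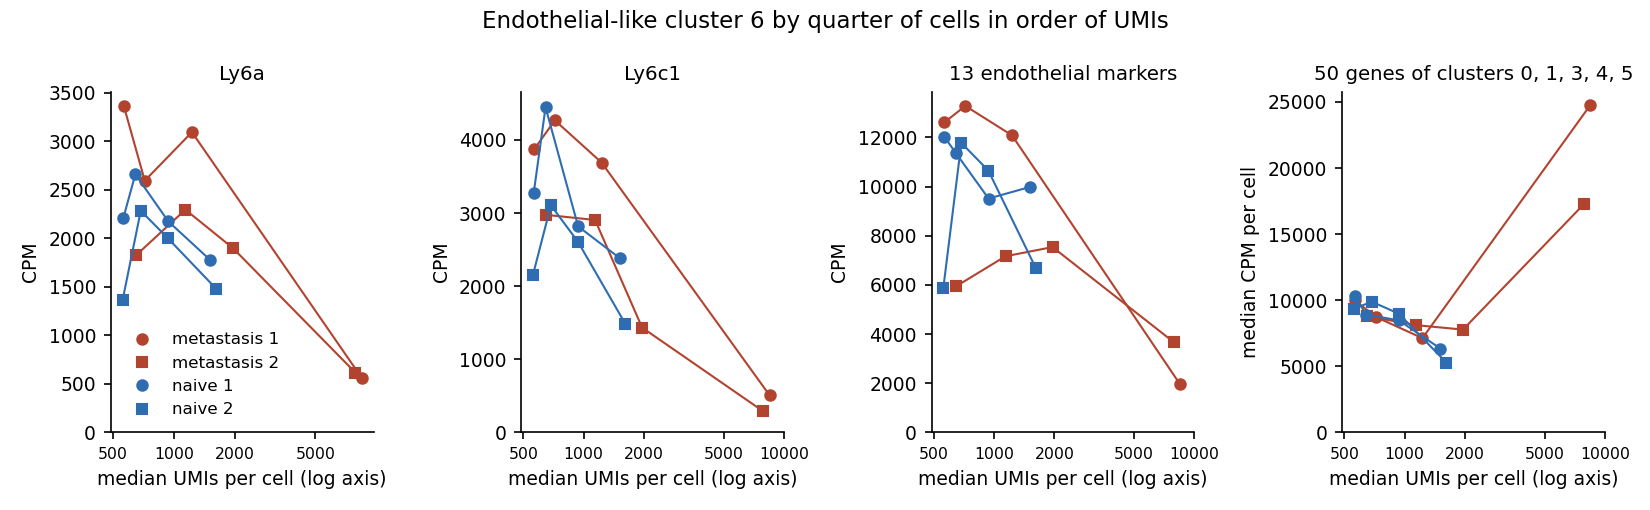
Endothelial-like cluster 6 split into 4 bins of cells by UMIs, per brain (red for metastases, blue for naive), with median UMIs per cell on a log axis against the level of Ly6a, Ly6c1, 13 endothelial markers and the 50 genes of the large clusters (CPM). In the deepest bin with metastases (median 8470 and 7877 UMIs) Ly6a lies at 563 and 617 CPM while the 50 genes reach 24780 and 17289 CPM.

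The ratios were therefore repeated in the cells that held less than 15000 CPM of those 50 genes, a limit chosen after the values were seen (114 and 97 cells with metastases, 128 and 83 naive). As the 50 genes were picked to be low in naive cells, this limit does not bear on both conditions alike. In these cells Ly6a had 2991 and 1753 CPM with metastases, against 2259 and 1866 CPM in naive brains, a log2 ratio of 0.20. Ly6c1 had 3613 and 1435 CPM, against 3131 and 2187 CPM, a log2 ratio of -0.07. Ly6e had 1538 and 1340 CPM, against 1443 and 1405 CPM, a log2 ratio of 0.02. All 3 genes overlapped between conditions, as did the endothelial markers at 11141 and 7777 CPM with metastases, against 11478 and 8964 CPM in naive brains. Per endothelial marker UMI, Ly6a had 0.268 and 0.225 UMIs there, against 0.197 and 0.208 in naive brains. The brains did not overlap for Ly6a, but the nearest were again close. Ly6e had 0.138 and 0.172, against 0.126 and 0.157, and overlapped. The lower level of the 3 genes with metastases was thus seen over all cells of the cluster and not in the cells with little RNA of the large clusters. Leaving out only the 5% of cells with the most UMIs gave log2 ratios of -0.0025 for Ly6a, -0.34 for Ly6c1 and -0.08 for Ly6e.

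In choroid plexus-like cluster 7, Ly6e had 304 and 470 CPM with metastases, against 140 and 59.8 CPM in naive brains, a log2 ratio of 1.90. Both brains with metastases were above both naive brains, as were 42.2% of all genes with at least 10 UMIs in this cluster. Ly6a overlapped, with 30.5 and 77.4 CPM with metastases, against 31.5 and 7.47 CPM in naive brains. Cells above the 15000 CPM limit held 73.4% and 88.5% of the cluster's UMIs with metastases, against 10.7% and 10.5% in naive brains, and 11 choroid plexus markers summed to 128181 and 76261 CPM, against 284060 and 268883 CPM. In the cells under the limit (85 and 57 with metastases, 111 and 56 naive), Ly6e had 170 and 200 CPM, against 62.7 and 33.4 CPM, a log2 ratio of 1.84. There 14.9% of genes were higher in both brains with metastases. The choroid plexus markers then had 334585 and 336829 CPM with metastases, against 315996 and 299684 CPM in naive brains. In cells of at most 2000 UMIs, another limit chosen after the values were seen, the log2 ratio was 0.53 and the brains overlapped. The direction of Ly6e in cluster 7 thus did not hold without overlap in its shallow cells. Choroid plexus markers averaged 307770 CPM in those shallow cells with metastases, against 202530 CPM in naive brains. The shallow cells were therefore unlike between conditions, and the part of this in the overlap was not tested. Ly6a no longer overlapped in either set, but on low counts. It had 24.9 and 139 CPM with metastases under the CPM limit (5 and 18 UMIs), against 15.7 and 0 CPM in naive brains (4 and 0 UMIs). In cells of at most 2000 UMIs (41 and 34 with metastases, 65 and 31 naive) it had 66.8 and 138 CPM, against 60.1 and 26.9 CPM. The nearest of these values lie close together, and no share of all genes is given for that set, so no rise of Ly6a is read from them.

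In choroid plexus-like cluster 9, whose cells were of like depth in all brains (median 5371 and 5338 UMIs with metastases, 4575 and 5576 naive), Ly6e had 178 and 269 CPM with metastases, against 82.3 and 88.9 CPM in naive brains. These levels rest on 109 and 127 UMIs with metastases and on 16 and 18 UMIs in naive brains. The log2 ratio was 1.34, and 30.2% of all genes with at least 10 UMIs were likewise higher in both brains with metastases. Under the 15000 CPM limit (91 and 63 cells with metastases, 40 and 35 naive) Ly6e had 164 and 218 CPM, against 82.3 and 79.6 CPM, a log2 ratio of 1.19, and 24% of genes were higher in both brains. Ly6e was thus higher with metastases in both sets of cells of cluster 9, a direction it had in common with a sizeable share of all genes. The other members had at most 4 naive UMIs each there and are not compared. Monocyte markers summed to 371 and 301 CPM in this cluster with metastases, against 206 and 178 CPM in naive brains. Dendritic markers had 1044 and 1248 CPM, against 473 and 390 CPM. Most of that sum was Bst2, also a gene of the interferon-induced list, at 981 and 1189 CPM, against 447 and 341 CPM. Proliferation genes summed to 181 and 210 CPM, against 77.1 and 88.9 CPM. Choroid plexus markers were lower, at 363923 and 328138 CPM with metastases, against 399565 and 417030 CPM, and cells above the 15000 CPM limit held 13.5% and 28.2% of the UMIs, against 0 and 7.0%. The part of these in the Ly6e level was not tested. In mural-like cluster 11 Ly6e had 328 and 452 CPM with metastases, against 269 and 231 CPM in naive brains, the naive values resting on 15 and 6 UMIs. The log2 ratio was 0.63, and 34.9% of genes were higher in both brains. Cells above the 15000 CPM limit held 97.5% and 98.4% of the UMIs of cluster 11 with metastases, and mural markers had 3115 and 2500 CPM, against 18618 and 33026 CPM in naive brains, and 6 and 5 of its cells were left under the limit. In these few cells Ly6e had 762 and 146 CPM with metastases on 5 and 1 UMIs, against 256 and 250 CPM in naive brains, so the brains overlapped. Ly6a had 41.4 and 41.9 CPM in cluster 11 with metastases, against 53.8 and 115 CPM in naive brains on 3 UMIs each.

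**Figure D4:**
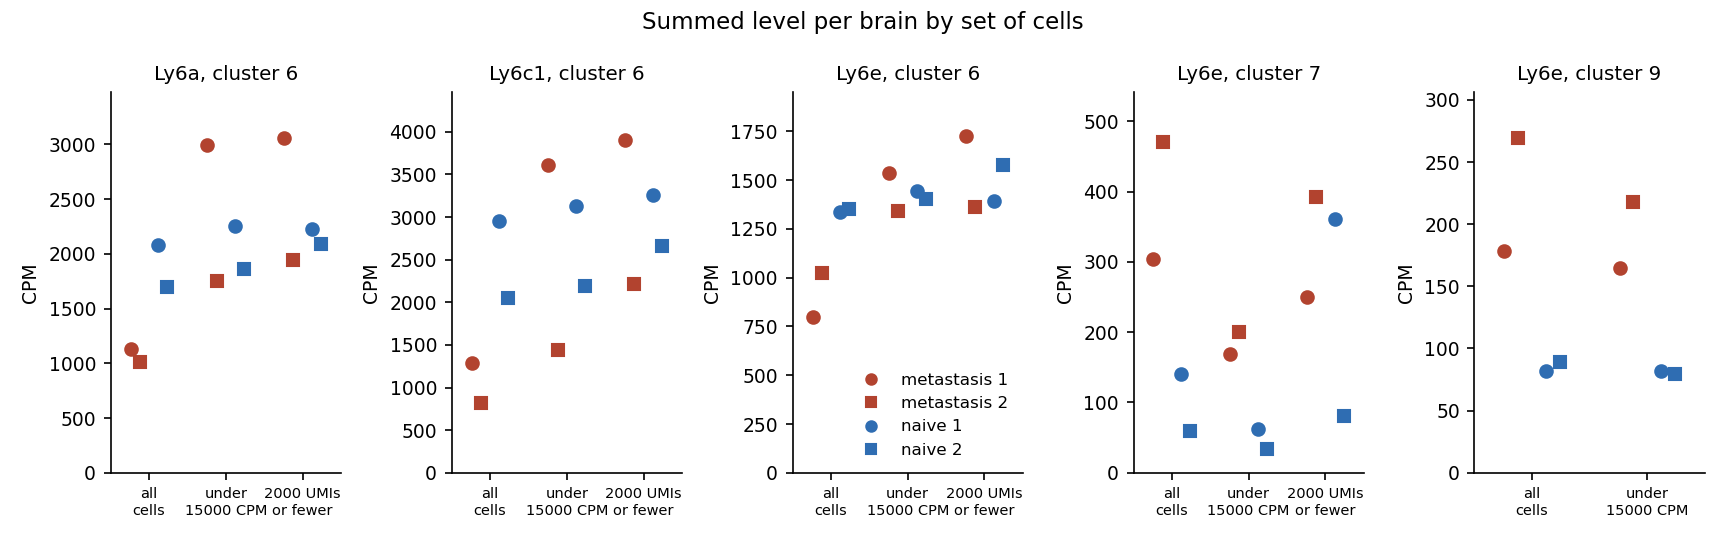
Levels (CPM) of Ly6 genes in clusters 6, 7 and 9 in all cells, in cells under 15000 CPM of the 50 genes of the large clusters and, where drawn, in cells of at most 2000 UMIs, with each brain as a point (red for metastases, blue for naive). Ly6a, Ly6c1 and Ly6e of cluster 6 are lower with metastases in all cells and overlap under the limit, whereas Ly6e of cluster 9 stays higher (164 and 218 CPM, against 82.3 and 79.6 CPM naive).

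Genes that were not members were tested with edgeR's quasi-likelihood test on UMI sums per brain, a separate fit per cluster, at a Benjamini-Hochberg adjusted p under 0.05. The p-values measure the spread between these 4 suspensions only. In cluster 9, 13 of 16 tested interferon-induced genes were higher with metastases and none lower (15 and 0 at an unadjusted p under 0.05), with a median log2 fold change of 2.77, against -0.001 over all tested genes and 3.83% of all tested genes called higher (0.461% lower). Ifit1, an interferon-induced RNA-binding protein, had 206 and 250 CPM with metastases, against 20.6 and 9.87 CPM in naive brains (log2 fold change 3.79, SE 0.41, edgeR adjusted p = 4.6e-08). Ifit3, of the same family, had 55.6 and 134 CPM with metastases, against 0 and 9.87 CPM (log2 fold change 4.01, SE 0.72, edgeR adjusted p = 0.00052). Psmb8, a subunit of the immunoproteasome, had 52.3 and 82.6 CPM, against 5.14 and 0 CPM (log2 fold change 4.46, SE 0.81, edgeR adjusted p = 0.00052). Trim30a, an interferon-induced member of the Trim family, had 52.3 and 69.9 CPM, against 0 and 4.94 CPM (log2 fold change 4.33, SE 0.81, edgeR adjusted p = 0.00068). Rsad2, the antiviral protein viperin, had 45.8 and 33.9 CPM with metastases and no UMI in naive brains, where 3 UMIs correspond to 15.4 and 14.8 CPM. The filter on low counts keeps a gene that passes in 2 brains, and 16 of the 53 listed genes in the table were tested. Genes near 0 in naive brains, such as Rsad2 and Trim30a, thus entered through the brains with metastases and could not be called lower. Their direction, and in part the median, followed from this filter, which was used in every cluster. Ly6e, known as an interferon-induced gene, was thus higher in the same cluster in which most tested genes of this list were higher. Under the 15000 CPM limit 12 of 15 were higher, against 1.4% of all tested genes. Without metastasis 1 the count was 3, without metastasis 2 it was 7, and by DESeq2 it was 6.

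**Figure D5:**
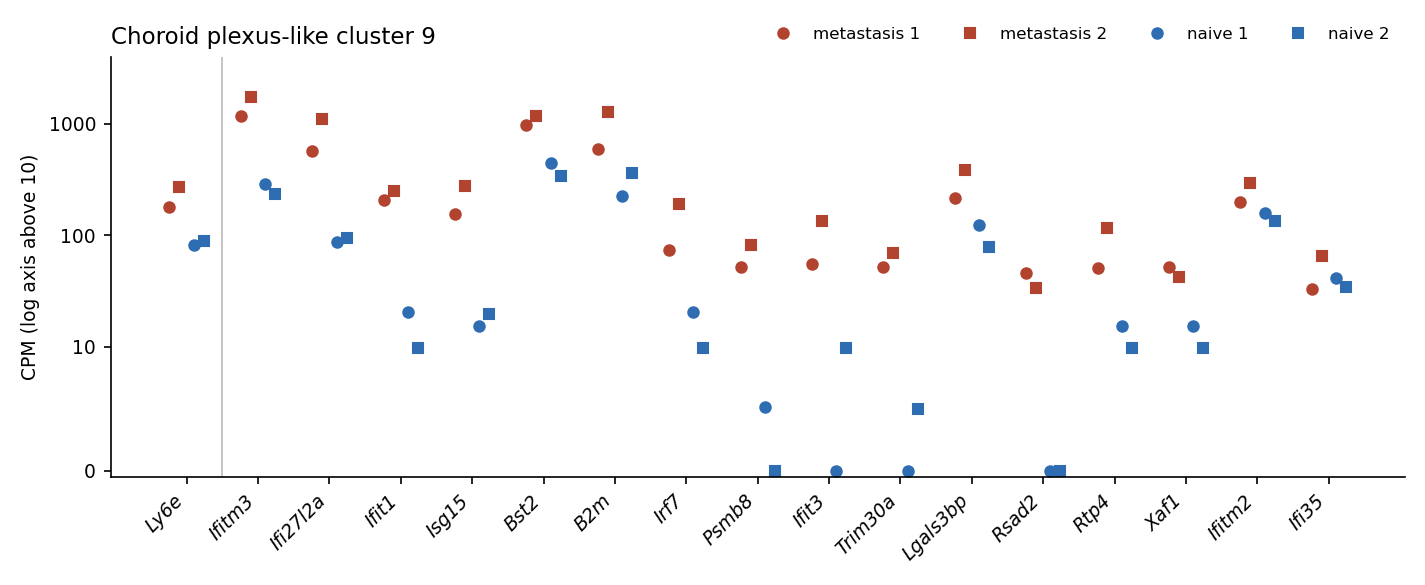
Ly6e and the 16 tested interferon-induced genes in choroid plexus-like cluster 9 (CPM, log axis above 10), with each brain as a point (red for metastases, blue for naive). Ly6e and every tested gene of the list but Ifi35 are higher in both brains with metastases, Ly6e at 178 and 269 CPM, against 82.3 and 88.9 CPM naive.

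In cluster 7, 5 of 22 tested interferon-induced genes were higher by edgeR and none lower (12 higher and 0 lower at an unadjusted p under 0.05), where 14.2% of all tested genes were called higher and 16.9% lower. Ifitm3, a membrane protein that hinders virus entry, had 1105 and 1594 CPM with metastases, against 602 and 247 CPM in naive brains (log2 fold change 1.34, SE 0.34, edgeR adjusted p = 0.015). The others were Isg20, Gbp3, Psmb8 and Bst2, with edgeR adjusted p between 0.0062 and 0.049. Under the limit, 4 of 11 were higher (Ifit1, Ifi27l2a, Ifitm3 and Bst2), against 0.202% of all tested genes, with edgeR adjusted p between 0.024 and 0.039. Without metastasis 1, and likewise without naive 1, 13 were higher over all cells. In endothelial-like cluster 6, 2 of 32 were higher, Iigp1 and Ifit3 (7 at an unadjusted p under 0.05), against 2.34% of all tested genes higher and 5.24% lower. Ifit3 had 102 and 148 CPM with metastases, against 32.9 and 45.4 CPM in naive brains (log2 fold change 1.70, edgeR adjusted p = 0.038). Under the limit 1 of 23 was higher by edgeR, Ifit3 again, and 13 at an unadjusted p under 0.05, against 0.169% of all tested genes called higher, and the list's median log2 fold change was 0.95, against 0.05 over all cells of the cluster. Over all cells the count was 4 without metastasis 1, 3 without naive 1 and 0 without metastasis 2. In cluster 11 none of 7 was higher by edgeR (2 at an unadjusted p under 0.05) and Ifitm2 was lower (log2 fold change -1.01, edgeR adjusted p = 0.0077), against 3.82% of all tested genes higher and 12.3% lower. Ifitm2 was no longer called without metastasis 1, metastasis 2 or naive 2. In endothelial-like cells, therefore, at most 2 genes of the interferon list passed the test in either set of cells.

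Of 37 other genes of the Ly6/uPAR superfamily that were listed, 35 were in the table, 28 had a UMI and 3 reached 50 CPM in any cluster with the 4 brains pooled. Plaur, the urokinase receptor, was found in all 13 clusters and was highest in cluster 2, at 320 CPM over the pooled brains and at 370 and 288 CPM with metastases. Cd59a, an inhibitor of complement lysis, was highest in cluster 9, at 270 CPM over the pooled brains, with 275 and 216 CPM with metastases, against 309 and 346 CPM in naive brains. Ly6d was highest in cluster 8 over the pooled brains, at 82.6 CPM, with 71.2 and 89.5 CPM with metastases. Among 3, 3, 2 and 1 relatives tested in clusters 6, 7, 9 and 11, only Cd59a in cluster 7 passed. It had 117 and 46.3 CPM with metastases, against 273 and 254 CPM in naive brains (log2 fold change -1.98, SE 0.39, edgeR adjusted p = 0.0056). Under the limit its log2 fold change was -0.05.

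Metastasis 2 had more Ly6e than metastasis 1 in 13 of 13 clusters (median log2 difference 0.39) and more Ly6a in 12 of 13 (0.54). For Ly6c1 it was higher in 9 of 13 (0.63), for Ly6i in 10 of 13 (0.09) and for Ly6c2 in 4 of 13 (-0.08). The interferon-induced list was higher in metastasis 2 in 12 of 13 clusters, by a median of 0.17. The Ly6c1 median was the largest, but it rests mostly on clusters in which the gene was low. In cluster 6, where Ly6c1 was highest, metastasis 2 was the lower brain, at 815 CPM against 1288 CPM in metastasis 1. The brains thus differed in Ly6a and Ly6e in nearly all clusters, which limits what 2 brains show. Both came from 1 pooled library, so this difference is between suspensions and not between sequencing runs.

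Across 12 clusters with at least 20 cells in the brains with metastases, 4997 genes with at least 50 CPM in a cluster were ranked by Pearson's r of log2(CPM + 10) with each member. The clusters share 1 library, and r is given as a description. The lists depended on the measure: for Ly6e, 4 of the 5 genes were also among the 5 by Spearman's rho, for Ly6a 3, for Ly6i 1, and for Ly6c1 and Ly6c2 none. Nearest to Ly6a were Gbp2 (0.97), Tsc22d3, Acvrl1, Xbp1 and Fli1 (0.91 to 0.93). Nearest to Ly6e were Psmb10 (0.98), Nfkbia, H2-T22, Nmi and Isg20. Nearest to Ly6c1 were Mmrn2 (0.98), Srarp, Ptprb, Tmem252 and S100b, of which Mmrn2 and Ptprb are endothelial genes. Nearest to Ly6c2 were Tyrobp, Laptm5, Il1b, Spi1 and Ms4a6b, and nearest to Ly6i Slc15a3, Clec4a1, Cd300c2, Clec4a3 and Lrrc25, most of them genes of myeloid cells. Between members r was 0.97 for Ly6c2 with Ly6i, 0.84 for Ly6a with Ly6e, 0.67 for Ly6a with Ly6c1 and -0.03 for Ly6c1 with Ly6c2. The similar start regions of Ly6c1 and Ly6c2 printed above thus belong to genes whose levels across clusters had an r near 0.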

How the data were processed

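The values used are the whole-number UMI counts that the authors deposited for every gene in every cell. The cluster and hashing call of each cell come from the deposited per-cell table, whose percent of mitochondrial UMIs, as deposited by the authors, was read for a description of clusters only. Per the submitters' processing notes, Cell Ranger 3.0.2, Seurat 3.0.1 and the mm10 build were used. The members, gene lists and tests were chosen with earlier results of these data known. UMIs were summed per deposited cluster and brain and scaled to 1000000 UMIs (CPM). Intervals are exact and cover counting error only. Ratios add 5 CPM to each mean. Genes other than the members were tested with edgeR 4.0.16 (quasi-likelihood, TMM, filterByExpr, R 4.3.3, limma 3.58.1) in clusters with at least 20 cells in every brain, with DESeq2 1.42.0 as an alternative. The fit was tested on simulated data. Clusters were named from fixed marker lists. Named genes are the members, list genes past an adjusted p of 0.05 (at most 5 per list and cluster by size of change), relatives at 50 CPM or more, the 5 genes most like each member and marker genes.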

Additional observations from a re-analysis of the deposited data

Results flagged for a closer look

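The change of Ly6e with metastases ran in opposite directions in different clusters, every brain with metastases lying above every naive brain in clusters 7, 9 and 11 and below every naive brain in endothelial-like cluster 6. The log2 ratio in cluster 7 minus that in cluster 6 was 2.46, in cluster 9 minus cluster 6 it was 1.90, and in cluster 11 minus cluster 6 it was 1.19. These differences were not tested. They hold over all cells of each cluster. In cells under 15000 CPM of the 50 genes of the large clusters the log2 ratio of cluster 6 was 0.02 and that of cluster 11 was 0.83, both with overlapping brains. In cells of at most 2000 UMIs that of cluster 6 was 0.06 and that of cluster 7 was 0.53, again with overlap. The opposite direction was thus not seen in either set. In the latter set, choroid plexus markers of cluster 7 differed between conditions.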

How the results depend on the processing

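Values rest on 2 brains per condition and 1 library. The suspensions of a condition may share an animal. Naive brains gave 48, 34 and 21 UMIs of Ly6e in clusters 7, 9 and 11, which limits the precision there. No paired analysis was possible because the numbers of the brains only name hashing antibodies and pair no samples. Leaving out cells with marker UMIs of another class left too few cells for the tests and was not run for them. In cluster 2 it left 101 and 111 cells with metastases. Ly6a then averaged 238 ± 235 CPM, against 538 ± 269 CPM over all cells (SD, n = 2). Ly6c2 averaged 521 CPM, against 626 CPM, and Ly6i 196 CPM, against 237 CPM. The markers of other classes include the MHC class II genes here, and their part in the lower Ly6a level was not tested. Of 88 alternatives for the log2 ratios, 74 kept direction and differed from the main value by less than the spread between brains. A further 7 moved by more and 7 changed sign. Where the brains lay far apart, as for Ly6a in cluster 7, a large change in size could stay within that spread. The lists of 5 most-like genes moved in 12 of 15 alternatives.

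In cluster 6 the log2 ratios of Ly6a, Ly6c1 and Ly6e were 0.042, -0.14 and 0.034 as means of the CPM of each cell. They were -0.0025, -0.34 and -0.081 without the 5% of cells with the most UMIs, 0.20, -0.075 and 0.016 in cells under 15000 CPM of the 50 genes, and 0.21, 0.050 and 0.056 in cells of at most 2000 UMIs. In cluster 7, Ly6a was 2.76 under the CPM limit, where its brains no longer overlapped, and Ly6e 0.53 in cells of at most 2000 UMIs. The cause was not tested. Leaving out each brain in turn gave log2 ratios in cluster 6 of -0.96 to -0.66 for Ly6a, -1.61 to -0.96 for Ly6c1 and -0.75 to -0.39 for Ly6e. In cluster 7 it gave 0.54 to 2.24 for Ly6a and 1.44 to 2.60 for Ly6e, in cluster 9 1.02 to 1.60 and in cluster 11 0.38 to 0.84 for Ly6e.

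Genes called by edgeR numbered 106 higher and 238 lower in cluster 6, 848 and 1008 in cluster 7, 133 and 16 in cluster 9, and 100 and 322 in cluster 11. Without a filter on low counts there were 0 and 0 in cluster 6, 1497 higher in cluster 7, 7 lower in cluster 9, and 207 higher and 206 lower in cluster 11. DESeq2 called 97 lower in cluster 6, 394 and 314 in cluster 7, 61 and 4 in cluster 9, and 65 and 138 in cluster 11. Under the CPM limit there were 4 and 0 in cluster 6, 4 and 0 in cluster 7, and 39 and 6 in cluster 9. In cells of at most 2000 UMIs there were 0 and 0 in cluster 6 and 1 and 0 in cluster 7. Leaving out each brain in turn gave 25 to 126 higher and 26 to 265 lower in cluster 6, 647 to 1072 and 541 to 916 in cluster 7, 4 to 85 and 0 to 11 in cluster 9, and 0 to 188 and 0 to 204 in cluster 11.

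Interferon-induced genes called higher numbered 0 in cluster 6, 14 in cluster 7 and 1 in cluster 11 without a filter, where none was lower in cluster 11. DESeq2 called 1 higher in cluster 6, 6 higher in cluster 9 and 0 lower in cluster 11. Under the CPM limit 1 was higher in cluster 6, and in cells of at most 2000 UMIs 0 in cluster 6 and 1 in cluster 7. Leaving out each brain in turn gave 0 to 4 in cluster 6, 4 to 13 in cluster 7 and 3 to 14 in cluster 9, and 0 to 1 lower in cluster 11.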
